A study of Mus musculus with 8 samples.

Results

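The protein kinase C isoforms examined here are 8 kinases, *Prkca*, *Prkcb*, *Prkcd*, *Prkce*, *Prkch*, *Prkci*, *Prkcq* and *Prkcz*, picked by gene symbol out of the 48709 Ensembl genes listed for each library. Bulk RNA from the cortex of mice at postnatal day 1 (P1) was sequenced for 4 control and 4 dcKO_Nex-Cre samples on a C57BL6/J background. The mutants carried floxed BAF155 (*Smarcc1*) and floxed BAF170 (*Smarcc2*), the scaffold subunits of the BAF chromatin remodeling complex, together with Nex-Cre, which sits at the *Neurod6* (*Nex*) locus and is active in postmitotic projection neurons, so that glia, interneurons and vessels keep both subunits. The controls were heterozygous for both floxed alleles (BAF155fl/+, BAF170fl/+) and Cre negative, which leaves the Cre allele in the mutants alone. The sample labels call the groups control and mutant, and the Nex-Cre driver is taken from the study. Nothing states whether a sample is 1 animal or a pool, so that the sample is the unit of the SDs and standard errors given below. The isoform list was drawn up because *Prkcd* and *Prkcb* had been placed on the study's list of lowered genes in this same comparison. The differences between groups for the isoforms are therefore given as a description. Their calls are counted only to be set beside the share of all genes, and nothing is read from them.

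Protein kinase C enzymes are serine/threonine kinases that relay signals from receptors coupled to phospholipase C. The conventional isoforms (*Prkca*, *Prkcb*) respond to calcium and diacylglycerol, the nPKC isoforms (*Prkcd*, *Prkce*, *Prkch*, *Prkcq*) to diacylglycerol without calcium, and the atypical isoforms (*Prkci*, *Prkcz*) to neither, acting instead with the PAR polarity proteins. In neurons these kinases are known for phosphorylating growth cone and synaptic proteins, and the atypical enzymes for their part in neuronal polarity.

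Library totals lay between 17958641 and 35191912 counts, and an isoform had between 127 and 10095 counts in a library, so that counting noise is largest for *Prkch* and *Prkcq*. *Smarcc1* and *Smarcc2* stood at 69.2% and 56.9% of the control level, with no overlap between the groups. Mitochondrial genes took 6.87% of the counts in control replicate 2 and 6.15% in dcKO_Nex-Cre replicate 4, against 2.33% to 4.24% in the other 6 libraries. The file names put dcKO_Nex-Cre replicates 3 and 4 on a sequencing lane, tag 8, that held no control, and the other 6 libraries on tag 2. Levels are given as CPM, the raw counts scaled by edgeR to a common library size after TMM normalization, and values after ± are SDs over the 4 libraries of a group. The mutant was set against the control by the quasi-likelihood test of edgeR over 16287 genes, all 8 isoforms among them, and a gene with a Benjamini-Hochberg adjusted p under 0.05 is said to be called. Standard errors were derived from this test, as the absolute log2 fold change over the square root of its F value. They rest on a variance moderated over genes, and not on the samples of that gene alone.

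*Prkcd* (ENSMUSG00000021948, chromosome 14, 30595354 to 30626210 on the minus strand of GRCm38) encodes the delta isoform, which is linked to apoptosis and stress signaling and is abundant in the thalamus. It was at 27.9, 25.1, 25.9 and 27.4 CPM in control replicates 1 to 4. The dcKO_Nex-Cre replicates 1 to 4 had 17.4, 18.5, 17.9 and 12.8 CPM. Every mutant library thus lay below every control library, with replicate 4 the lowest. The mean was 16.6 ± 2.60 CPM in the mutant against 26.6 ± 1.32 CPM in the control (n = 4 each). This was 62.6% of the control mean, and a log2 fold change of -0.67 (standard error 0.12). The log2 fold change was -0.56 among the libraries of lane tag 2, and also -0.56 without dcKO_Nex-Cre replicate 4.

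*Prkcb* (ENSMUSG00000052889, chromosome 7, 122288751 to 122634402, plus strand), a conventional isoform abundant in neurons and in immune cells, was at 90.9, 77.3, 90.3 and 94.5 CPM in control replicates 1 to 4. It had 79.0, 74.5, 79.2 and 60.5 CPM in dcKO_Nex-Cre replicates 1 to 4. Control replicate 2 lay within the range of the mutants, and dcKO_Nex-Cre replicate 4 was again the lowest. The mutant mean was 73.3 ± 8.80 CPM against 88.3 ± 7.51 CPM (n = 4 each), or 83.1% of the control, and the log2 fold change was -0.27 (standard error 0.10). This difference was -0.20 among lane tag 2 libraries and -0.18 without dcKO_Nex-Cre replicate 4.

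The promoter windows of these genes on the study's list of lowered genes are shown because they are the isoforms that led to the list. RefSeq windows of 300 bases, from 250 before to 50 after a start on GRCm38.p6, matched 6 of the 8 isoforms in 9 windows. Capitals mark matches, on either strand, to the E-box CANNTG (the letters bound by basic helix-loop-helix factors) and to the GC box GGGCGG. These motifs may share bases, as they do at the first match in the upstream *Prkcd* window.

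Prkcd upstream start (chr14:30626159-30626458, minus strand): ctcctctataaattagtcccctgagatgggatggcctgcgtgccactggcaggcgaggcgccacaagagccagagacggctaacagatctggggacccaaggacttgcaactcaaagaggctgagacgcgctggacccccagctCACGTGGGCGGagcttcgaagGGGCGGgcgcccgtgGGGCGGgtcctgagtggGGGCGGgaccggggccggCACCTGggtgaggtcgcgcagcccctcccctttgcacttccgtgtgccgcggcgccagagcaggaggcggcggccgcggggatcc

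Prkcd downstream start (chr14:30610261-30610560, minus strand): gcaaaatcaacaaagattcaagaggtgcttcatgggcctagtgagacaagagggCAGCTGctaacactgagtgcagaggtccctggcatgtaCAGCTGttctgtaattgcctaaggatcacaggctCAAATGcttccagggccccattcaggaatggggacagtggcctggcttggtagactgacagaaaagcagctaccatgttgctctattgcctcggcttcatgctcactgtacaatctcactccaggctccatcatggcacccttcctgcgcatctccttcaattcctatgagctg

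Prkcb (chr7:122288875-122289174, plus strand): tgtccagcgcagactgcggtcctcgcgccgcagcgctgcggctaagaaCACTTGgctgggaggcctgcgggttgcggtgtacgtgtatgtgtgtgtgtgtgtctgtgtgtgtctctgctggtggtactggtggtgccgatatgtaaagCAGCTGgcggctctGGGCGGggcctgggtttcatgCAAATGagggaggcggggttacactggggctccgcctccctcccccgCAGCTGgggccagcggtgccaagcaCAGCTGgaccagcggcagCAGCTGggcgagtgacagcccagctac

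The upstream *Prkcd* window held 4 GC boxes and 2 E-boxes at a GC content of 69.3%, whereas the downstream window held 3 E-boxes and no GC box at 51.3%. The *Prkcb* window held 6 E-boxes and 1 GC box at 65.3%. An E-box of this form was found in 72.3% and a GC box in 35.7% of all 32851 RefSeq windows of this length. The letters TGANTCA (AP-1 site) and TGACGTCA (cyclic AMP response element) were absent from these windows; 7.81% and 1.79% of all windows hold them. Gene counts do not separate transcripts from the starts of *Prkcd*.

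*Prkca* (ENSMUSG00000050965, chromosome 11, 107933387 to 108343928, minus strand), the widely expressed conventional isoform, was at 63.8, 66.6, 65.4 and 67.4 CPM in the control and at 71.0, 74.7, 62.9 and 47.9 CPM in the dcKO_Nex-Cre cortex. The 4 controls were close together (65.8 ± 1.55 CPM), while the mutants spread on both sides of them (64.2 ± 11.9 CPM). The log2 fold change was -0.034 (standard error 0.12) and turned to 0.085 without dcKO_Nex-Cre replicate 4 and to 0.15 within lane tag 2.

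*Prkce* (ENSMUSG00000045038, chromosome 17, 86167785 to 86657919, plus strand), an nPKC isoform known for binding actin and for neurite outgrowth, was at 284, 244, 276 and 279 CPM in the control. It was at 293, 222, 263 and 208 CPM in dcKO_Nex-Cre replicates 1 to 4. The groups overlapped, with both the highest and the lowest library in the mutant group, and the log2 fold change was -0.14 (standard error 0.11). *Prkca*, *Prkcb*, *Prkcd* and *Prkce* all had their lowest CPM of the 8 libraries in dcKO_Nex-Cre replicate 4, a library of high mitochondrial share, whose part in these values was not tested.

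The remaining nPKC isoforms were scarce. *Prkch* (ENSMUSG00000021108, chromosome 12, 73584796 to 73778185, plus strand), known from epithelia, ranged from 7.09 to 13.1 CPM in the control and from 6.23 to 13.1 CPM in the mutant, a log2 fold change of -0.14 (standard error 0.24). The sign turned within lane tag 2 (0.20) and, near 0, without control replicate 3 or dcKO_Nex-Cre replicate 3. *Prkcq* (ENSMUSG00000026778, chromosome 2, 11172108 to 11301222, plus strand), best known as the T cell isoform, ranged from 9.60 to 12.95 CPM in the control and from 10.3 to 12.5 CPM in the mutant, a log2 fold change of 0.067 (standard error 0.13) that was -0.013 within lane tag 2. Of the 6 T cell markers, *Cd3e* was at 0 in all libraries and *Cd3d*, *Cd3g*, *Cd2* and *Cd4* were at or near 0 in both groups, while *Lck* was at 12.2 ± 1.62 CPM in the control and 13.5 ± 2.27 CPM in the mutant, and was the only one of the 6 abundant enough to be tested. Their summed level was 10.7 to 14.2 CPM in the control and 10.8 to 15.8 CPM in the mutant.

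Both atypical isoforms had higher means in the dcKO_Nex-Cre cortex, with overlap between the groups. *Prkci* (ENSMUSG00000037643, chromosome 3, 30995747 to 31052959, plus strand), the iota isoform of the PAR complex, was at 76.9, 64.5, 72.8 and 71.2 CPM in the control and at 81.1, 75.1, 83.8 and 72.8 CPM in the mutant. Its log2 fold change was 0.13 (standard error 0.079). *Prkcz* (ENSMUSG00000029053, chromosome 4, 155260129 to 155361361, minus strand), the zeta isoform, also gives rise in brain to a transcript for the kinase domain alone, PKM zeta, which gene counts do not set apart. It was at 111, 103, 116 and 106 CPM in the control and at 129, 110.1, 119 and 112 CPM in the mutant, a log2 fold change of 0.11 (standard error 0.074). The values of every isoform by library are drawn in the plot of CPM.

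**Figure D1:**
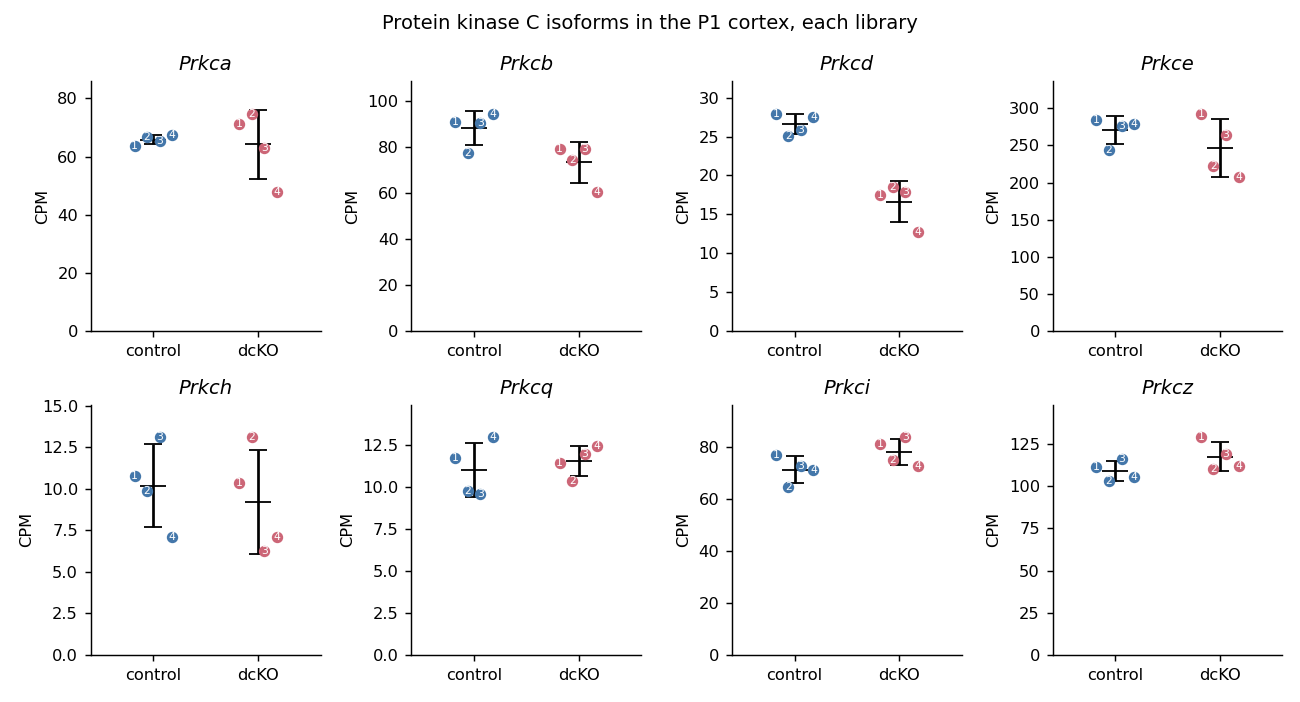
CPM of the 8 isoforms in each library (points, numbered by replicate) with the mean and SD of 4 libraries (black); each vertical axis starts at 0. *Prkcd* is the isoform whose groups do not overlap, at 25.1 to 27.9 CPM in the control and 12.8 to 18.5 CPM in the dcKO_Nex-Cre cortex.

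Among the 8 isoforms, 1 was called lower (*Prkcd*) and none was called higher, where 0.51% of all genes tested were called lower, 0.375% higher and 0.884% in either direction. At an unadjusted edgeR p under 0.05, 2 isoforms were lower (*Prkcd* and *Prkcb*), against 7.05% of all genes, and 0 were higher, against 6.59%. The groups did not overlap for 1 isoform, against 8% of all genes. The median log2 fold change of the isoforms was -0.085, against 0.0043 over all genes, and 5 of the 8 were below 0, among them *Prkca* and *Prkch*, whose sign turned in other fits. Since *Prkcd* and *Prkcb* were known from this comparison when the family was listed, these counts support nothing about the family. The count of 1 went to 0 in 6 of the 8 leave-one-out fits, that is in all but those without control replicate 2 or dcKO_Nex-Cre replicate 4, while the log2 fold change of *Prkcd* lay between -0.72 and -0.56. Without both libraries of high mitochondrial share, 2 isoforms (*Prkcd* and *Prkcb*, at log2 fold changes of -0.59 and -0.24) were called lower, where 5.5% of all genes were called lower and 11% in either direction.

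**Figure D2:**
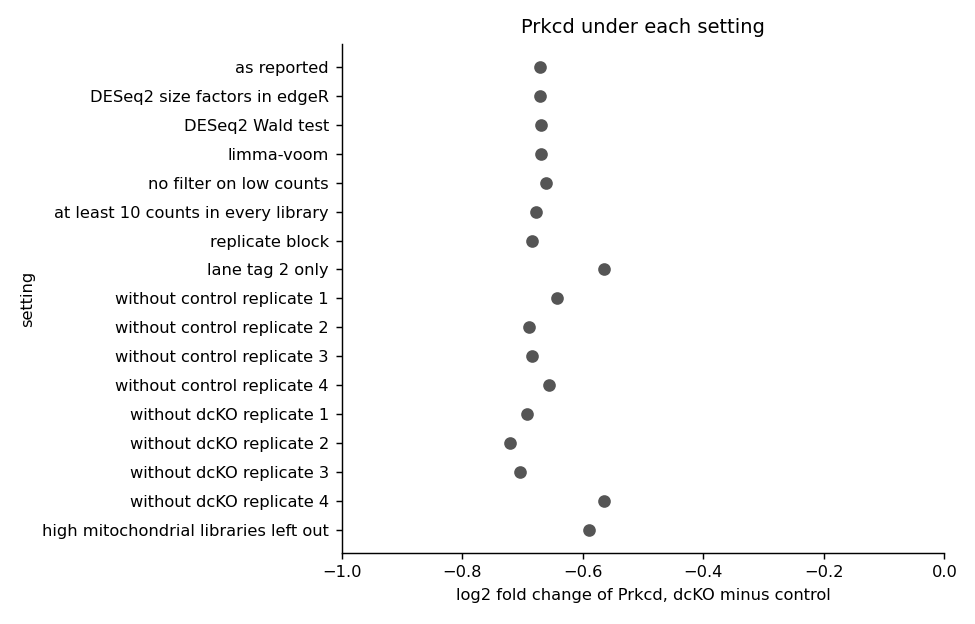
Log2 fold change of *Prkcd* (dcKO_Nex-Cre minus control) as reported and under each of 16 alternatives. All values lie between -0.72 and -0.56. The alternatives reuse libraries of the comparison that led to the listing of *Prkcd*.

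Levels of different genes were compared per kilobase of exon. *Prkce* was the most abundant isoform in the control, at 37.3 ± 2.52 CPM per kb, followed by *Prkcz* at 17.3 ± 0.92, *Prkci* at 12.9 ± 0.93, *Prkcb* at 11.5 ± 0.98, *Prkca* at 7.32 ± 0.17, *Prkcd* at 4.797 ± 0.24, *Prkcq* at 1.55 ± 0.23 and *Prkch* at 1.35 ± 0.33 CPM per kb. The highest mean was 27.5 times the lowest, or 15.6 times with the length of the longest transcript in place of the union of exons. The ranges of the 4 control libraries overlapped for *Prkci* and *Prkcb* and for *Prkcq* and *Prkch*, and these neighbours were not ordered. With the longest transcript *Prkce* was again highest, the ranges of *Prkcb* and *Prkcz* overlapped (23.2 to 28.4 and 25.3 to 28.5 CPM per kb) and lay above that of *Prkci*, *Prkcd* lay above *Prkca*, and *Prkch* and *Prkcq* again overlapped.

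**Figure D3:**
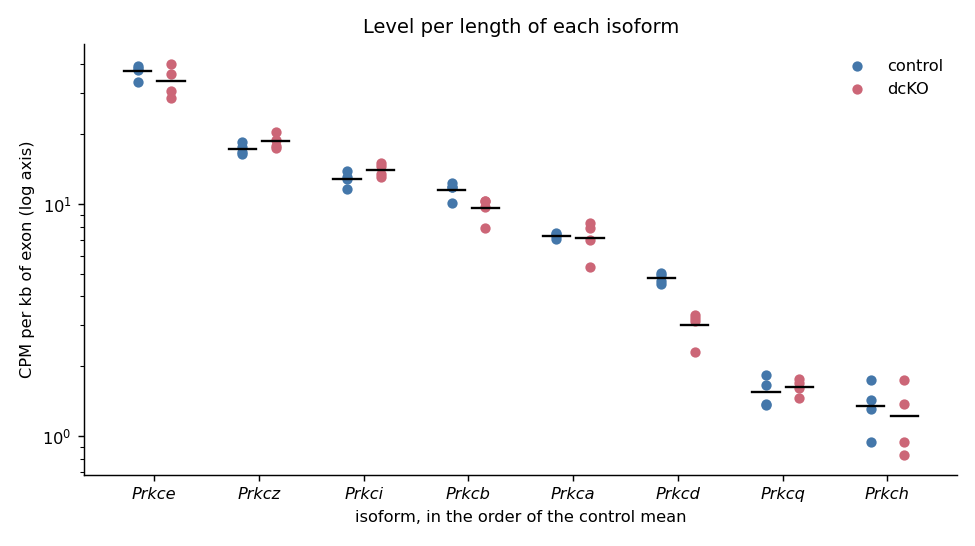
CPM per kilobase of exon (log axis) of each isoform in the 4 control and 4 dcKO_Nex-Cre libraries; points are libraries and lines are means. In both groups *Prkce* lies highest, and *Prkcq* and *Prkch* lie lowest.

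As a share of the summed level per length of the 8 isoforms, the nPKC isoforms took 47.3% to 48.4% in the control and 43.1% to 46.6% in the dcKO_Nex-Cre cortex, without overlap. The atypical isoforms took 30.9% to 32.7% and 35.1% to 39.7%, also without overlap. The conventional isoforms took 19.4% to 20.8% in the control and 17.0% to 20.9% in the mutant, with overlap. The share of *Prkcd* was 5.11% ± 0.18 in the control and 3.36% ± 0.39 in the mutant, and that of *Prkce* 39.7% ± 0.60 and 37.9% ± 2.18. The summed level itself overlapped between the groups, at 86.3 to 97.8 CPM per kb in the control and 77.7 to 99.7 in the mutant. Shares of a library add up to the whole, so that lower shares of some isoforms raise those of others. In CPM, *Prkci* and *Prkcz* each overlapped between the groups. These shares rest on the union of exons alone, come from the same comparison that led to the list and are given as a description.

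**Figure D4:**
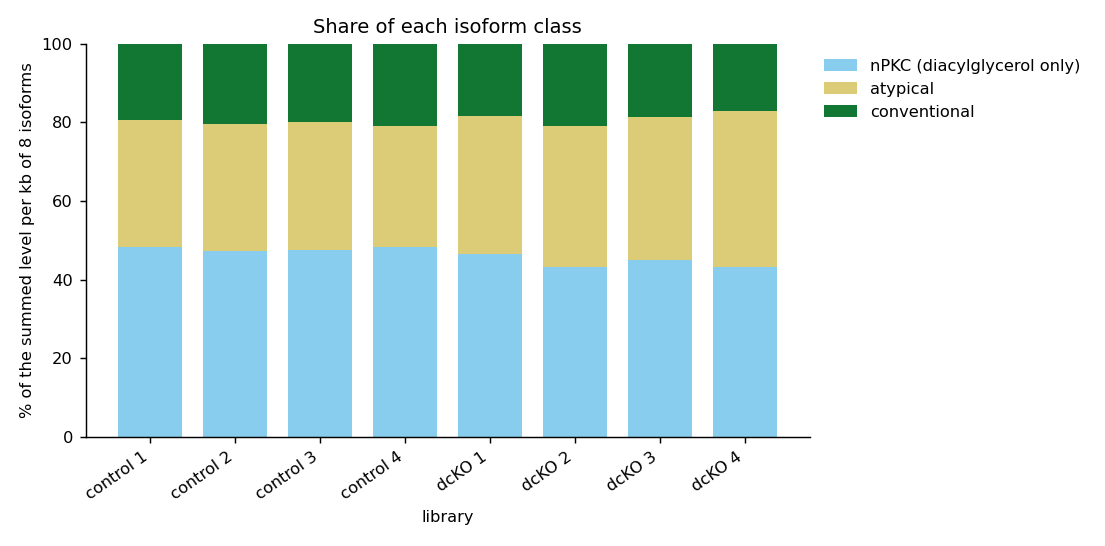
Percent of the summed CPM per kb of the 8 isoforms taken by the nPKC, atypical and conventional classes in each library. The atypical share is 35.1% to 39.7% in the dcKO_Nex-Cre libraries and 30.9% to 32.7% in the control libraries. Classes add up to the whole in each library, so that their shares are not independent.

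In whole tissue, fewer cells of a type and less RNA per cell cannot be told apart. The 9 projection neuron markers summed to 1717 to 1992 CPM in the control and to 1501 to 1695 CPM in the mutant, with *Neurod6* called lower. Without *Neurod6*, whose locus carries the Cre allele, the other 8 summed to 1133 to 1242 CPM and 1079 to 1283 CPM. At an unadjusted edgeR p under 0.05, 3 of the 9 were lower, *Neurod6* among them, where 7.05% of all genes were lower and 6.59% higher. DESeq2's Wald test called 279 of all genes lower and 215 higher, where edgeR called 83 and 61. It also called *Fezf2* lower (63.0 ± 11.2 CPM in the control and 43.0 ± 8.63 CPM in the mutant, without overlap). *Cux1* went the other way, at 151 ± 2.59 CPM in the control and 168 ± 12.8 CPM in the mutant, also without overlap. The 7 thalamic markers, of interest because *Prkcd* is abundant there, summed to 174 to 201 CPM in the control and 155 to 199 CPM in the mutant, and none of the 6 tested was called. This sum mainly follows *Slc17a6*, *Calb2* and *Prox1*, at means of 63.0, 52.1 and 42.1 CPM in the control. *Gbx2*, not tested for its low counts, was at 0.22 ± 0.10 CPM in the control and 0.15 ± 0.23 CPM in the mutant, and *Tcf7l2* at 3.77 ± 0.57 and 3.70 ± 0.91 CPM. The sum of 5 oligodendrocyte precursor markers was 173 to 252.05 CPM in the control and 252.1 to 308 CPM in the mutant, with *Cspg4* called higher. At an unadjusted edgeR p under 0.05, 4 of these 5 were higher and 0 lower, and all 5 log2 fold changes were above 0 (median 0.396). The 9 microglial markers summed to 135 to 158 CPM and 149 to 188 CPM, with *C1qb* called higher. Of these 9, 3 were higher and 1 lower at an unadjusted edgeR p under 0.05. The microglial list went both ways, since DESeq2's Wald test called *C1qc* higher and *P2ry12* lower, the latter at 12.1 ± 0.32 CPM in the control and 8.12 ± 1.205 CPM in the mutant, without overlap. Of the 7 striatal markers (96.0 to 123 CPM and 94.9 to 241 CPM) *Ppp1r1b* was called higher. In the remaining lists edgeR called none of the 10 interneuron, 9 radial glia and astrocyte, 6 endothelial and 5 red blood cell markers, of the 4 of 5 choroid plexus markers tested, or of the T cell list. At an unadjusted edgeR p under 0.05 these lists held 1 interneuron marker, which was lower, and 2 of radial glia and astrocytes. Of those 2, *Fabp7* was lower and *Gfap* higher (61.1 ± 2.65 CPM in the control, 77.5 ± 15.8 CPM in the mutant, with overlap). DESeq2's Wald test called *Sst* and *Fabp7* lower. The summed level was 806 to 949 CPM in the control and 708 to 860 CPM in the mutant for interneurons, 2386 to 2820 and 1979 to 2497 CPM for radial glia and astrocytes, and 17.3 to 1343 and 3.93 to 555 CPM for choroid plexus. The part of cell composition in the isoform values was not tested.

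Over the 8 libraries, the genes with the profile nearest to *Prkcd* were *Klf10*, *Lmo7* and *Prmt8*, with root mean square distances of 0.10, 0.12 and 0.12 on the log2 CPM scale after centring, against a median distance of 0.41 over the 10280 genes of at least 10 CPM. *Klf10*, a zinc finger transcription factor, was at 18.8 to 20.3 CPM in the control and 11.2 to 13.9 CPM in the mutant. *Lmo7*, a LIM domain protein of cell junctions, was at 77.0 to 93.0 and 46.0 to 65.0 CPM, and *Prmt8*, a brain arginine methyltransferase, at 49.7 to 57.3 and 33.3 to 38.5 CPM. The profiles share libraries and depth, and nearness to *Prkcd* includes its difference between groups.

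The genes around these kinases were examined in 7 lists with 94 genes, of which 93 were tested and *Ppp1r14d*, at 0 in all libraries, was not. Of the 93, 1 was called lower and 1 higher, against 0.884% of all genes in either direction, and their median log2 fold change was 0.014. The gene called lower, *Ppp1r14c*, is 1 of the 18 tested substrates. At an unadjusted edgeR p under 0.05, 4 of the 18 were lower and 1 higher, where 7.05% and 6.59% of all genes were. DESeq2's Wald test also called *Snap25*, a SNARE protein of synaptic vesicle fusion, lower (349 ± 16.4 CPM in the control and 275 ± 14.7 CPM in the mutant, without overlap). That test called 279 of all genes lower, where edgeR called 83. *Ppp1r14c* (ENSMUSG00000040653, chromosome 10, 3366057 to 3464975), which encodes the protein phosphatase 1 inhibitor KEPI, activated by PKC phosphorylation, was at 84.9, 77.2, 77.5 and 95.0 CPM in the control and at 51.9, 47.9, 51.0 and 60.4 CPM in the dcKO_Nex-Cre cortex. It fell without overlap between the groups, by 0.67 on the log2 scale (standard error 0.096, edgeR adjusted p = 0.015). The study also listed *Ppp1r14c* as lowered from these samples, so that it is not independent evidence. Its call was lost without control replicate 1, control replicate 4 or dcKO_Nex-Cre replicate 3, with log2 fold changes from -0.73 to -0.60 over the 8 fits. *Gap43* and *Marcksl1*, growth cone and actin-regulating substrates and the most abundant of the list, had log2 fold changes of -0.30 and 0.052 (edgeR adjusted p = 0.279 and 0.787).

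In the list of 16 phospholipase C and Gq genes, which supply diacylglycerol, *Plch1* rose and no gene was called lower by edgeR. At an unadjusted edgeR p under 0.05, 2 were lower and 3 higher, where 7.05% and 6.59% of all genes were. DESeq2's Wald test, which called 279 of all genes lower where edgeR called 83, called 2 lower (*Plcd1* and *Plch2*). *Plch1* (ENSMUSG00000036834, chromosome 3, 63696234 to 63899472), the eta-1 phospholipase C, was at 11.9, 12.3, 12.3 and 11.6 CPM in the control and at 17.2, 16.6, 19.0 and 19.8 CPM in the mutant. The groups did not overlap, and the log2 fold change was 0.59 (standard error 0.094, edgeR adjusted p = 0.0195). Its call was lost without control replicate 1, control replicate 3, control replicate 4 or dcKO_Nex-Cre replicate 3. The call was also lost with the replicate number as a block (edgeR adjusted p = 0.0863) and within lane tag 2 (log2 fold change 0.49, edgeR adjusted p = 0.0511). *Gnaq* and *Gna11*, the G protein subunits that activate phospholipase C beta, had log2 fold changes of 0.16 and 0.055 (edgeR adjusted p = 0.542 and 0.797).

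No gene was called by edgeR in the other 5 lists. At an unadjusted edgeR p under 0.05 they held 4 effectors of diacylglycerol (3 lower and 1 higher) and 1 maturation gene (lower). Over all genes, 7.05% were lower and 6.59% higher at this threshold. DESeq2's Wald test called *Unc13c* lower, as it did 279 of all genes. The 10 diacylglycerol kinases, which remove diacylglycerol, ranged in log2 fold change from -0.37 to 0.29, and *Dgkd* and *Dgkz*, the most abundant, stood at 0.075 and -0.13. Among 17 genes for maturation, anchoring and turnover, from -0.29 to 0.22, the chaperone *Hsp90ab1* and the PKC anchor *Rack1* had log2 fold changes of 0.15 and -0.018, the latter turning to 0.13 without control replicate 2 and above 0 without dcKO_Nex-Cre replicate 1, 2 or 3 as well. The 11 polarity partners of atypical PKC ranged from -0.14 to 0.29, with *Cdc42*, the GTPase that activates the PAR complex, at -0.14 and *Sqstm1*, the p62 scaffold, at 0.10. The 13 other diacylglycerol effectors ranged from -0.80 to 0.24, with the Rac regulator *Chn1* at -0.10 and the vesicle priming protein *Unc13a* at -0.049, the latter turning to 0.041 without control replicate 2. The 8 related kinases ranged from -0.11 to 0.28, with *Akt1*, a kinase of growth factor signaling, at 0.057 and *Sgk1*, a kinase induced by glucocorticoids, at 0.17. Adjusted p-values from edgeR in these 5 lists were at least 0.126.

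**Figure D5:**
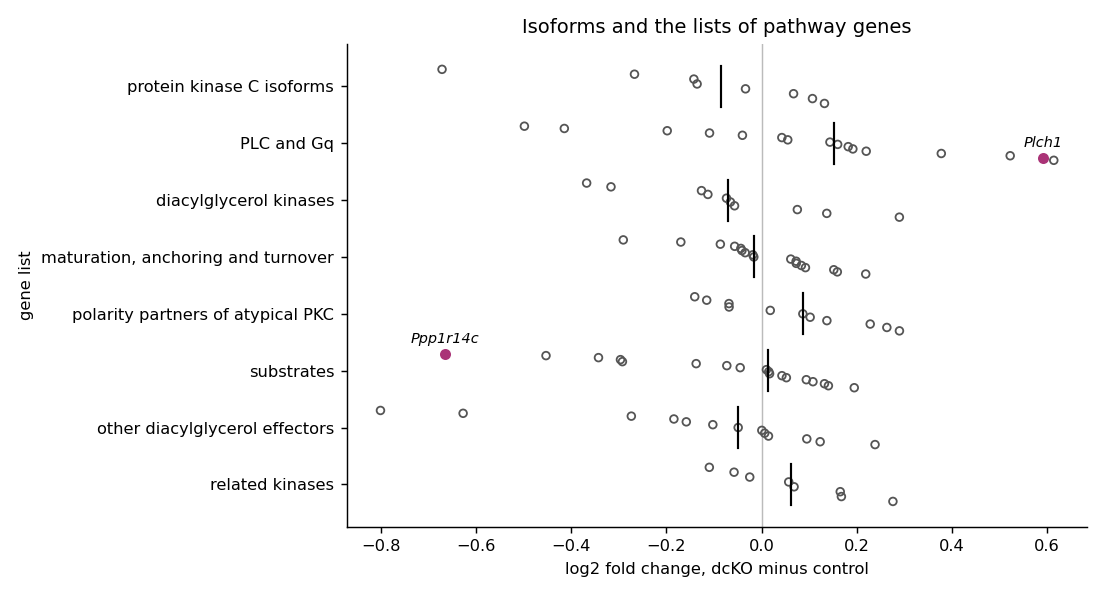
Log2 fold changes (dcKO_Nex-Cre minus control) of the 8 isoforms and of the tested genes of 7 lists; points are genes, lines are list medians, and filled points are list genes with an edgeR adjusted p under 0.05 (the isoforms are all drawn open). The filled points are *Ppp1r14c* and *Plch1*.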

How the data were processed

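RNA was extracted with TRIZOL from whole P1 cortex, and libraries were made with an Illumina TruSeq RNA kit. The authors deposited raw counts per gene for each of 8 libraries, without normalization; the submitters' notes name mm10, and the aligner, counter, annotation and strand setting are not given in the sources used here. Identifiers were matched to GENCODE M21 on GRCm38 (48349 of 48709), which gave symbols, positions and exon lengths. The tests were run with edgeR 4.0.16 under R 4.3.3 (filterByExpr, TMM, robust quasi-likelihood F test, two-sided, no covariates, Benjamini-Hochberg over 16287 genes). DESeq2 1.42.0 and limma 3.58.1 served as alternatives. The methods were also run on simulated counts, with the same spread between replicates for every gene and no outlying library. That run cannot tell how the methods perform on libraries as unequal as these. Levels per length are CPM divided by the union of exon lengths.

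Named genes are the isoforms, *Smarcc1* and *Smarcc2*, from each pathway list the called genes and the 2 most abundant per length, and the 3 nearest to *Prkcd*. Marker genes were named outside this rule. The isoforms, gene lists and tests were chosen with earlier results of these data known. The lane tags were read from file names. Leaving out both libraries of high mitochondrial share was added after seeing the data. Some items are withheld and were left out of the lists. Promoters come from RefSeq on GRCm38.p6. Libraries of a group differed by more than counting noise (lowest chi-square over its degrees of freedom, 3.77).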

Additional observations from a re-analysis of the deposited data

Results flagged for a closer look

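Among 62 groups of 4 values (the CPM of the named genes, total counts and mitochondrial share in each group), 6 held a library far from the other 3, where chance gives about 1 in 20. No isoform was among them. For *Rack1*, dcKO_Nex-Cre replicate 4 had 1586 CPM and the other mutants 1010.3 to 1096 CPM. *Prmt8* had 33.3 CPM in the same library, below the 37.8 to 38.5 CPM of the other mutants. *Unc13a* stood at 208 CPM in control replicate 2, above the 166 to 171 CPM of the other controls. For *Dgkd*, control replicate 3 had 183 CPM and the other controls 167 to 169 CPM. *Sgk1* had 49.7 CPM in dcKO_Nex-Cre replicate 2 and 58.3 to 58.8 CPM in the other mutants. *Akt1* reached 395 CPM in dcKO_Nex-Cre replicate 1, against 356 to 363 CPM.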

How the results depend on the processing

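*Prkcd* was below the control in all 16 alternatives, which reuse libraries of the comparison that led to its listing. It was called in 9 of them and not in 7. The isoforms called numbered 1 as reported, 0 with the replicate number as a block, 2 without both libraries of high mitochondrial share (an alternative chosen after seeing the data) and 0 to 1 with a library left out. Against 144 genes called as reported, 494 were called with DESeq2's Wald test, 259 without a filter, 54 with the replicate block, 248 within lane tag 2, 1794 without both libraries of high mitochondrial share and 18 to 1278 with a library left out, the lowest without control replicate 1 and the highest without dcKO_Nex-Cre replicate 4. Pathway genes called numbered 2 as reported, 6 with DESeq2's Wald test, 4 without a filter, 1 with the replicate block, 1 within lane tag 2, 14 without both libraries of high mitochondrial share and 0 to 11 with a library left out, the highest again without dcKO_Nex-Cre replicate 4. Without both libraries of high mitochondrial share, 11% of all genes were called, against 0.884% as reported. Same-numbered libraries did not deviate together in every pair (correlations of 0.20, 0.037, 0.18 and -0.19), so that the numbers were not taken to pair samples. The sign turned within lane tag 2 for *Prkca* (0.15), *Prkch* (0.20), *Prkcq* (-0.013) and *Unc13a* (0.00078), and without both libraries of high mitochondrial share for *Prkca* (0.092), *Prkcq* (-0.016) and *Unc13a* (0.083). With a library left out, log2 fold changes ranged from -0.11 to 0.085 for *Prkca*, from -0.36 to 0.0061 for *Prkch*, from 0.0066 to 0.16 for *Prkcq*, from -0.18 to 0.13 for *Rack1* and from -0.12 to 0.041 for *Unc13a*. With the longest transcript as length, control levels were 7.82 CPM per kb for *Prkca*, 26.5 for *Prkcb*, 9.33 for *Prkcd*, 43.3 for *Prkce*, 2.81 for *Prkch*, 15.2 for *Prkci*, 2.77 for *Prkcq* and 26.8 for *Prkcz*. The cause of these changes was not tested, beyond the shorter lengths and fewer samples themselves. A planned comparison of protein sequences was not run. At a mean of 233 and 267 counts a library, *Prkch* and *Prkcq* are the isoforms most limited by depth.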
